A study of Mus musculus with 13 samples.

Results

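Kidney RNA of knockout and wild-type mice was compared after both had received lipopolysaccharide (LPS), the cell-wall component of Gram-negative bacteria that is injected to model septic acute kidney injury. The knockout lacked DsbA-L, the product of Gstk1, and the groups held 3 knockout mice (AKI-320, AKI-156, AKI-381) and 4 wild-type mice (AKI-317, AKI-319, AKI-12, AKI-13), which made up 7 of the 13 libraries of the series. Every LPS mouse received 10 mg/kg into the peritoneum, and the other 6 mice, 3 of each genotype, received 200 µL of saline and served here to say which differences were present without LPS. The RNA came from whole renal tissue, although the labels also carry the words "Primary Cell". The cells in which the knockout acted, the strain, the age of the mice and the time from injection to sampling are not stated in the sources used here. In whole tissue, fewer cells of a type and less RNA per cell cannot be told apart.

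DsbA-L is a thiol-disulfide protein of mitochondria and peroxisomes. It is named after its likeness to the bacterial enzyme DsbA and takes part in the assembly of the hormone adiponectin. LPS is sensed by Toll-like receptor 4 with its co-receptors CD14 and MD-2. The adaptor MyD88 leads from there to the transcription factors NF-kB and AP-1 and to early cytokines, and the adaptor TRIF leads to IRF3, type I interferon and, through STAT factors, to the interferon-stimulated genes. In the kidney, resident macrophages, endothelium and tubular cells all carry LPS receptors, and tubules respond with injury markers and with a loss of transport and of fat oxidation.

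Of 34745 genes in the table, 14709 had enough counts in the LPS libraries to be tested, and 48 rose and 54 fell in the knockout, which is 0.326% and 0.367% of those tested. A level is given as CPM, the count relative to its library's total after TMM adjustment, and, unless said otherwise, values are listed with libraries in the order AKI-320, AKI-156, AKI-381, then AKI-317, AKI-319, AKI-12, AKI-13. Changes are log2 fold changes ± SE of knockout over wild type from edgeR's quasi-likelihood test, with Benjamini-Hochberg adjusted p-values over every gene tested. A gene rose or fell when its adjusted p was below 0.05. All 102 genes that passed had knockout and wild-type libraries that did not overlap, but so did 9.57% of all tested genes on the higher side and 8.88% on the lower side. These shares are the background for every list count of genes higher or lower in every knockout. Without adjustment, 3247 genes had p below 0.05, 1794 higher and 1453 lower. The median log2 fold change of all tested genes was 0.002, and it was 0.32 when libraries were scaled by their totals alone. List medians are given with TMM factors, and they too were higher with library totals.

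The targeted gene itself had 27, 1 and 19 counts in the knockouts and 351, 445, 570 and 297 counts in the wild types. Its levels were 1.58, 0.0635 and 1.08 CPM in the knockouts and 22.5, 32.6, 41.1 and 20.8 CPM in the wild types. Every knockout lay far below every wild type, and the fall (log2 fold change -4.98 ± 0.64, adjusted p = 0.0351) went with the genotype labels. Library AKI-156, which was the knockout nearest to the wild types in most of the 102 genes that passed, had the lowest Gstk1 count of all. The LPS libraries held 14372212 to 17668334 counts with TMM factors of 0.785 to 1.192, and Y-linked transcripts were present in all 7 and absent from all 6 saline libraries, where Xist was high. Saline and LPS mice therefore differed in sex as well as in treatment.

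Sequence in front of 6 of the genes that fell is shown. Cxcl2, Cxcl3, Cxcl10, Gbp5 and Lif are cytokine and interferon-stimulated genes whose windows held an NF-kB (kB) consensus, and F3 is a coagulation gene with AP-1 matches. They are shown so that these matches can be read in place, and they do not stand for all genes that fell. Irg1, Sectm1b, Cd274 and Tap1 also fell, and their windows held none of the motifs searched. Rhcg rose, and its window, not printed, held a kB match 31 bases before the start. Windows are the 250 bases before the transcription start in RefSeq, build GRCm38.p6, written along the gene's strand, and capitals mark motif matches on either strand. The motifs searched were the kB consensus bound by NF-kB, TGANTCA (AP-1, where N is any base) and the consensus of the interferon-stimulated response element (ISRE), and matches could overlap. The kB and ISRE forms were chosen after a first search with a narrower kB form, fixed at all but 1 base, and a wider ISRE form of the core bases alone, and results of both searches are given. Cxcl2 (chr5:90903649-90903898, plus strand) and Cxcl3 (chr5:90785851-90786100, plus strand) are neighbouring neutrophil chemokine genes. Cxcl10 (chr5:92348890-92349139, minus strand) encodes an interferon-induced chemokine. Gbp5 (chr3:142496684-142496933, plus strand) encodes a guanylate-binding protein. Lif (chr11:4257318-4257567, plus strand) encodes a cytokine of the IL-6 family. F3 (chr3:121723287-121723536, plus strand) encodes tissue factor, which starts coagulation.
Cxcl2: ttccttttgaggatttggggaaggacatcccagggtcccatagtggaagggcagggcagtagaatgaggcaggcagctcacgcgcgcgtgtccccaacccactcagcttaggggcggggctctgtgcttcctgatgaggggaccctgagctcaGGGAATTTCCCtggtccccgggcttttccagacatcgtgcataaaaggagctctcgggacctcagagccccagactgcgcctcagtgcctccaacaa
Cxcl3: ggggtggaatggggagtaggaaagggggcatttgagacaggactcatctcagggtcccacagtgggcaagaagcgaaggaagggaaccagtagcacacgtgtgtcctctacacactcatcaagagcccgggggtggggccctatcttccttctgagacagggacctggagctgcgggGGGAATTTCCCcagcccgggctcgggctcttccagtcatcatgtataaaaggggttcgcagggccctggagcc
Cxcl10: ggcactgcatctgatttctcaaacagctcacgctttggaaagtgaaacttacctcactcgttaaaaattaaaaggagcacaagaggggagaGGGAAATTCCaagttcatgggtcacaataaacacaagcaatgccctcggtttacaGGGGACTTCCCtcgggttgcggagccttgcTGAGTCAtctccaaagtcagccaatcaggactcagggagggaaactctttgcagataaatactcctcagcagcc
Gbp5: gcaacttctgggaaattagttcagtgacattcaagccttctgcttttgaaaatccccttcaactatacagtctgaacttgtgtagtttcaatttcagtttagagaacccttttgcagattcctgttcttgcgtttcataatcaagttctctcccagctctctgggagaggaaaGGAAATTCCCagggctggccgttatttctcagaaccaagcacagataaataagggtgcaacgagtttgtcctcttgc
Lif: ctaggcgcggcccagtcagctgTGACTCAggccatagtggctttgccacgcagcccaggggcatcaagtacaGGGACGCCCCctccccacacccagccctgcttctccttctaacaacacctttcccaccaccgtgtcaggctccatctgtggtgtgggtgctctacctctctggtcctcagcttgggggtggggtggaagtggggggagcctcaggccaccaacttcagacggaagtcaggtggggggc
F3: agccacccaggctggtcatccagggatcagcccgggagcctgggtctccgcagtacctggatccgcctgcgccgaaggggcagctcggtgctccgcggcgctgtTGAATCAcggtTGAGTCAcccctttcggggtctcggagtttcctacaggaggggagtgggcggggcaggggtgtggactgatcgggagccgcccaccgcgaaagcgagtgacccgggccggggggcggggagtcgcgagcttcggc
The kB match began 97 bases before the start in Cxcl2 and 73 bases before it in Cxcl3, and both read GGGAATTTCC, with a second match shifted by 1 base on the other strand. Cxcl10 had kB matches at 159, 104 and 103 bases and an AP-1 match at 74 bases before its start. Gbp5 had a kB match at 77 bases, Lif had a kB match at 178 and an AP-1 match at 228 bases, and F3 had AP-1 matches at 146 and 135 bases. The full ISRE consensus was not in these 6 windows, but the wider form searched first was in Cxcl10 at 213 bases and in Gbp5 at 165 bases, and the narrower kB form was in Cxcl2, Cxcl3 and Gbp5 and not in Cxcl10 or Lif.

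Of the genes that fell, 35 had a RefSeq window, here with the 50 bases after the start included, and 10 of these (28.6%) held kB, 6 (17.1%) AP-1 and 0 the ISRE. Of the genes that rose, 39 had a window, and 6 (15.4%), 6 (15.4%) and 0 held these motifs. Among the 11160 tested genes with a window the shares were 12.5%, 6.85% and 0.305%, and among all 27025 windows 9.55%, 8.97% and 0.189%. With the forms searched first, 3 (8.57%) of the genes that fell held kB and 3 (8.57%) the ISRE, against 1 (2.56%) and 1 (2.56%) of those that rose and 0.556% and 3.82% of the tested genes. AP-1 matches were about as frequent in front of genes that rose as in front of genes that fell. A match describes letters only.

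The knockout libraries were not alike. Knockouts AKI-320 and AKI-381 lay at 73.4 and 69.6 on the first principal component of log2 CPM, which held 48.5% of the variance, while knockout AKI-156 lay at -1.82 and the wild types between -59.4 and -16.0. The second component held 24.1% and divided the wild types, with AKI-317 and AKI-319 at 38.3 and 56.6 and AKI-12 and AKI-13 at -38.6 and -24.0. Knockouts AKI-320, AKI-156 and AKI-381 lay at 13.7, -29.9 and -16.1 on it. Library AKI-156 was the knockout nearest to the wild types in 46 of the 54 genes that fell and in 46 of the 48 that rose. Among the wild types, library AKI-13 was nearest to the knockouts in 29 and 24 of them. Without library AKI-156, 1078 genes rose and 863 fell (7.12% and 5.7% of 15150 tested), all 102 genes among them. These shares are the background for list counts without that library.

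**Figure D1:**
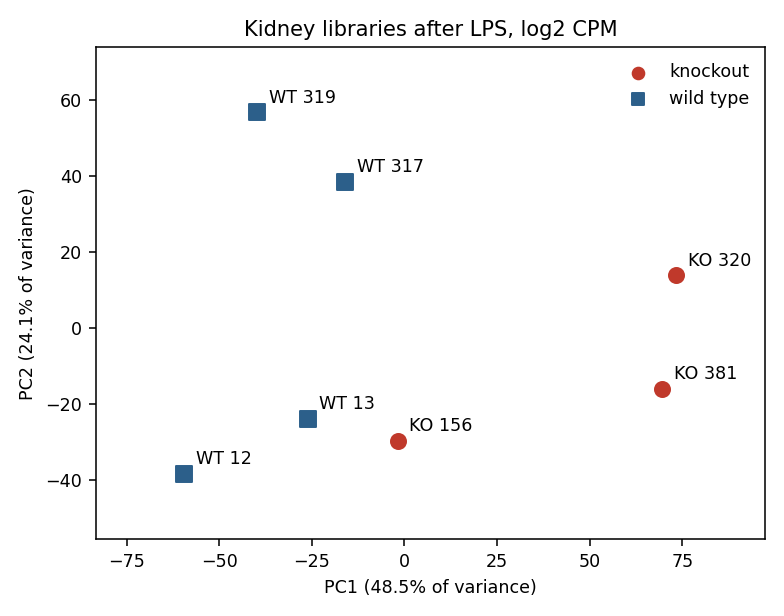
Principal components of log2 CPM in the 7 LPS libraries, PC1 on the x axis and PC2 on the y axis with their shares of the variance; each point is a library, coloured by genotype. Knockouts AKI-320 and AKI-381 sit at the far right (73.4 and 69.6), and knockout AKI-156 (-1.82) sits beside the wild types.

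The count depended on which libraries entered. When any of knockout AKI-320, knockout AKI-381 or wild types AKI-317, AKI-319 and AKI-12 was left out, 1 or 2 genes passed, and the only one of the 102 among them was Pet117. Without wild type AKI-13, 23 of the 102 still passed. With the saline libraries added to the fit, so that the spread was estimated from all 13 libraries, 1373 genes rose and 988 fell (8.74% and 6.29% of those tested), all 102 among them. The 102 genes kept their direction in each of the 17 alternatives run. Their groups did not overlap, so leaving out a library could hardly turn a direction. Because the count depended on the libraries, the genes the results turn on are given with their value in each library. Results without library AKI-156 are given beside them for the main gene groups. That library was the knockout nearest to the wild types in most of the 102 genes, so leaving it out widens the difference. Without knockout AKI-320 or knockout AKI-381 instead, no member of any gene list passed.

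**Figure D2:**
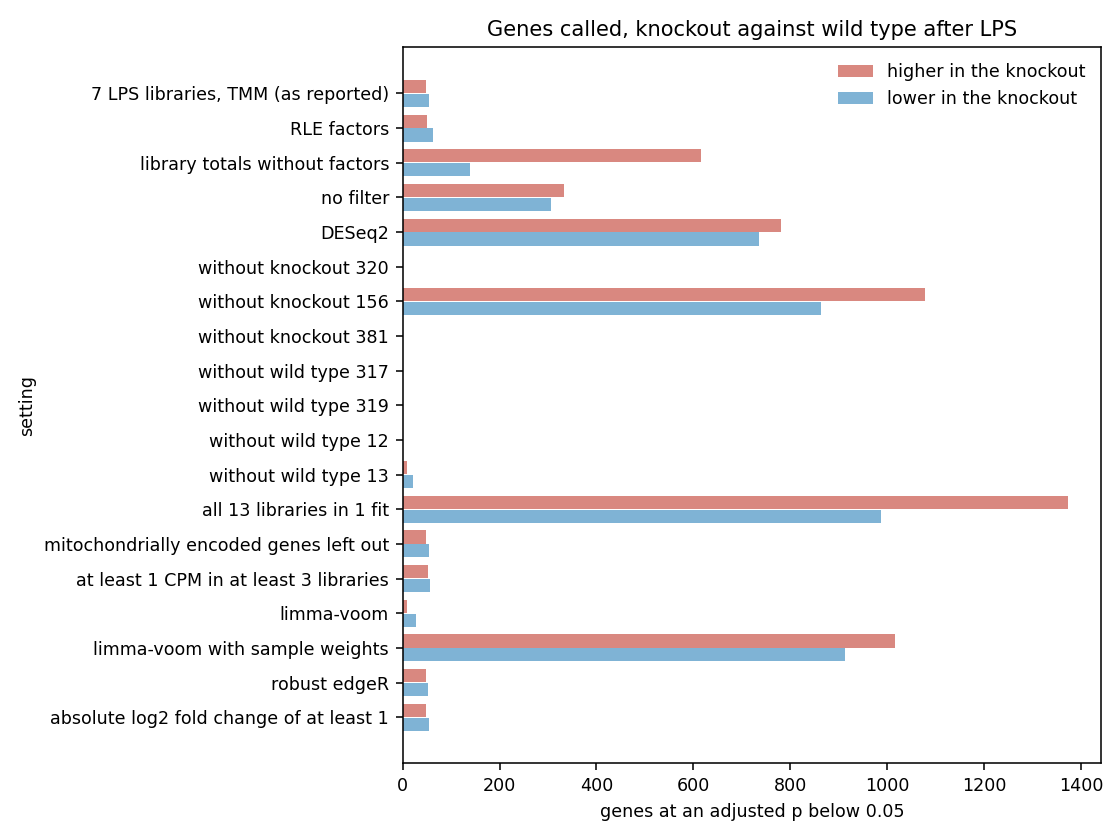
Number of genes at an adjusted p below 0.05 (x axis) for each way of processing or library left out (y axis), with bars for genes higher and lower in the knockout. The comparison as reported gave 48 and 54 genes, and the count ran from 1 higher and 0 lower without knockout AKI-381 to 1373 and 988 with all 13 libraries in the fit.

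At the receptor end of the LPS pathway no listed gene passed. Tlr12, a Toll-like receptor gene outside the list, rose (log2 fold change 2.6, edgeR adjusted p = 0.0493). Of the 15 tested genes of LPS and Toll-like receptor signalling, 4 were lower and 2 higher in every knockout than in every wild type, and their median log2 fold change was -0.61. Tlr4, the LPS receptor, was at 9.96, 16.8 and 13.9 CPM in the knockouts and 7.19, 8.497, 3.61 and 3.37 CPM in the wild types, so that every knockout exceeded every wild type without passing (log2 fold change 1.26 ± 0.37, adjusted p = 0.0963). Its co-receptor gene Cd14 was at 157, 676 and 204 CPM in the knockouts and 1608, 1310, 926 and 1093 CPM in the wild types (log2 fold change -1.84 ± 0.49, adjusted p = 0.0782), with every knockout below every wild type and library AKI-156 the highest knockout. Without library AKI-156, 4 of the 15 fell, Cd14 among them (log2 fold change -2.78, edgeR adjusted p = 0.00258). Tlr2, the receptor of bacterial lipoproteins, had a log2 fold change of -1.56 ± 0.36 and Tnfaip3, which encodes the ubiquitin-editing inhibitor A20, one of -2.37 ± 0.59, and neither passed.

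NF-kB genes were lower without passing singly. Of 14 tested subunits and inhibitors, 9 were lower in every knockout than in every wild type against 8.88% of all tested genes, none was higher, none passed, and the median was -0.68. Rela, the p65 subunit, stood at 55.3, 70.5 and 47.8 CPM in the knockouts and 149, 208, 108 and 94.8 CPM in the wild types (log2 fold change -1.27 ± 0.299, adjusted p = 0.0613). Nfkbia, which encodes the inhibitor IkB-alpha and is itself induced by NF-kB, stood at 100.1, 100.3 and 67.8 CPM in the knockouts and 142, 198, 186 and 156.01 CPM in the wild types (log2 fold change -0.93 ± 0.23, adjusted p = 0.0659). In both genes the groups did not overlap and the difference missed the threshold by little. Nfkb1 (log2 fold change -0.65), Nfkbiz (-1.26), Bcl3 (-1.33) and Relb (-0.96) were also lower in all knockouts, and without library AKI-156 a total of 6 of the 14 fell.

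The immediate-early genes, which are switched on within minutes by stress and growth signals and shut off again, were lower nearly throughout. Outside AP-1, 13 of 14 tested were lower in every knockout, 4 fell, and the median was -1.398. Ier3, a stress-induced regulator of cell survival, was at 34.3, 73.6 and 32.7 CPM in the knockouts and 157, 312, 235 and 162 CPM in the wild types, and fell (log2 fold change -2.21 ± 0.38, adjusted p = 0.04904). Egr1, a zinc-finger transcription factor, was at 36.4, 45.7 and 24.9 CPM in the knockouts and 127, 228, 80.3 and 128 CPM in the wild types, and fell (log2 fold change -1.98 ± 0.37, adjusted p = 0.04904). No knockout reached the lowest wild type in either gene, and knockout AKI-156 came closest. Ier2 fell by 1.79 on the log2 scale from 71.2, 110.1, 49.4 and 53.8 CPM in the wild types to 18.7, 27.4 and 15.5 CPM in the knockouts. Zfp36, whose product tristetraprolin destroys cytokine mRNAs, was at 60.8, 73.6 and 64.98 CPM in the knockouts and 161, 229, 161 and 138 CPM in the wild types (log2 fold change -1.37 ± 0.23, adjusted p = 0.04904). Btg2 and Klf6, at log2 fold changes of -2.15 and -1.62, did not pass.

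Among the AP-1 subunits all 12 tested had a negative log2 fold change, 9 were lower in every knockout, and Atf3 and Batf2 fell. Atf3, a stress-induced member of the ATF family, was at 12.01, 12.9 and 6.84 CPM in the knockouts and 30.6, 43.9, 38.1 and 30.3 CPM in the wild types (log2 fold change -1.75 ± 0.28, adjusted p = 0.0459). Batf2, which is induced by interferon in macrophages, was at 0.703, 2.35 and 1.43 CPM in the knockouts and 7.77, 10.1, 11.2 and 6.1 CPM in the wild types (log2 fold change -2.56 ± 0.44, adjusted p = 0.04904). Fos (-1.41 ± 0.296), Jun (-0.97 ± 0.302), Junb (-1.34 ± 0.32) and Fosl1 (-2.42 ± 0.52) were lower in every knockout without passing, with edgeR adjusted p of 0.0532, 0.109, 0.0614 and 0.0545. Without library AKI-156, 9 of the 12 AP-1 genes and 10 of the 14 other immediate-early genes fell. A second brake on cytokine mRNA, the RNase gene Zc3h12a (Regnase-1), fell as well, at 17.2, 33.03 and 13 CPM in the knockouts and 71.4, 85.9, 68.9 and 61.1 CPM in the wild types (log2 fold change -1.77 ± 0.32, adjusted p = 0.04904).

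Of 16 tested cytokine genes 9 were lower in every knockout, none was higher, and the median was -2.49, but only Lif fell. Lif was at 4.92, 10.04 and 5.93 CPM in the knockouts and 26.1, 44.2, 43.6 and 59.04 CPM in the wild types (log2 fold change -2.64 ± 0.35, adjusted p = 0.0351). The highest knockout, library AKI-156, held less than the lowest wild type. Il6, the cytokine best known as a marker of sepsis, was at 2.64, 17.8 and 1.14 CPM in the knockouts and 24.5, 45.4, 163 and 82.9 CPM in the wild types, a wide spread in both groups, and did not pass (log2 fold change -3.46 ± 0.95, adjusted p = 0.0818). Csf3, the granulocyte growth factor, was at 3.34, 19.8 and 3.48 CPM in the knockouts and 51.3, 83.1, 101 and 63.7 CPM in the wild types (log2 fold change -3.08 ± 0.63, adjusted p = 0.0532). In both genes library AKI-156 stood several times above the other knockouts, and without it they had log2 fold changes of -5.39 and -4.46 with edgeR adjusted p of 0.00857 and 0.00192. Tnf, the early macrophage cytokine, reached only 1.86, 3.44, 7.43 and 4.63 CPM in the wild types and 0.234, 1.21 and 0.399 CPM in the knockouts (log2 fold change -2.82 ± 0.66, adjusted p = 0.0611). Il1b overlapped between the groups, with 1.11, 4.45 and 1.77 CPM in the knockouts and 1.93, 2.93, 30.6 and 18.3 CPM in the wild types (log2 fold change -2.46 ± 0.93, adjusted p = 0.164).

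Of 19 tested chemokine genes Cxcl2, Cxcl3, Cxcl10 and Ccl20 fell and Cxcl12 rose. In all, 9 were lower in every knockout, and the median was -1.87. Cxcl2, a ligand of the neutrophil receptor CXCR2 whose window is printed above, was at 8.61, 27.2 and 4.22 CPM in the knockouts and 75.02, 121, 156.1 and 112 CPM in the wild types (log2 fold change -3.12 ± 0.58, adjusted p = 0.04904). Its neighbour Cxcl3 was at 0.527, 1.97 and 0.513 CPM in the knockouts and 8.61, 10.3, 11.6 and 9.12 CPM in the wild types (log2 fold change -3.31 ± 0.49, adjusted p = 0.0351). Both groups were well separated, and library AKI-156 was again the highest knockout. Cxcl10, which draws CXCR3-bearing T and NK cells, was at 26.6, 37.2 and 21.7 CPM in the knockouts and 145, 595, 309 and 90.7 CPM in the wild types (log2 fold change -3.32 ± 0.61, adjusted p = 0.04904). Ccl20, the ligand of CCR6, was at 0.234, 0.445 and 0.399 CPM in the knockouts and 3.02, 7.47, 4.904 and 1.96 CPM in the wild types (log2 fold change -3.57 ± 0.58, adjusted p = 0.04904).

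Cxcl12, the CXCR4 ligand made by stroma and endothelium, went the other way and rose, at 101, 97.7 and 111 CPM in the knockouts and 21.1, 30.5, 42.2 and 49.99 CPM in the wild types (log2 fold change 1.52 ± 0.28, adjusted p = 0.04904). Its 3 knockout values lay close together, library AKI-156 included. Ccl2, the monocyte chemoattractant that NF-kB induces in tubules, was at 14.7, 12.1 and 9.06 CPM in the knockouts and 13.7, 36.99, 72.6 and 28.05 CPM in the wild types and did not pass (log2 fold change -1.66 ± 0.48, adjusted p = 0.0935), with overlapping groups. Cxcl1, with 139 ± 131 CPM (SD, n = 3) against 821 ± 306 CPM (SD, n = 4), was lower in every knockout and missed the threshold (log2 fold change -2.56 ± 0.58, adjusted p = 0.05702). Without library AKI-156, 9 of the 19 chemokine genes fell and 1 rose.

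Cxcl2 and Cxcl3 lie in a chemokine cluster on mouse chromosome 5 that also holds genes of the epidermal growth factor family. From Cxcl5 to Btc, chr5:90759360-91402994 in GRCm38, 10 genes were tested, 7 were lower in every knockout and 4 fell. Over all tested genes these shares were 8.88% and 0.367%. This window was chosen after its values were seen, so its counts are in part set by that choice. Ereg, which encodes epiregulin, was at 0.117, 0.953 and 0.171 CPM in the knockouts and 3.28, 9.01, 8.005 and 5.399 CPM in the wild types (log2 fold change -3.96 ± 0.697, adjusted p = 0.04904). Areg, which encodes amphiregulin, was at 1.35, 3.56 and 3.42 CPM in the knockouts and 15.2, 9.82, 10.9 and 25.3 CPM in the wild types (log2 fold change -2.46 ± 0.45, adjusted p = 0.04904). Both ligands of the EGF receptor were low in all knockouts, while Btc, the gene of the related ligand betacellulin at the far end, overlapped fully (0.09 ± 0.35). Hbegf, another ligand of that receptor on another chromosome, fell from 37.3, 51.2, 39.3 and 40.8 CPM to 22.03, 17.7 and 19.7 CPM (log2 fold change -1.09 ± 0.21, adjusted p = 0.0493). Cxcl5 (-1.87 ± 0.51) and Pf4 (-1.16 ± 0.59) were lower in every knockout and did not pass.

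**Figure D3:**
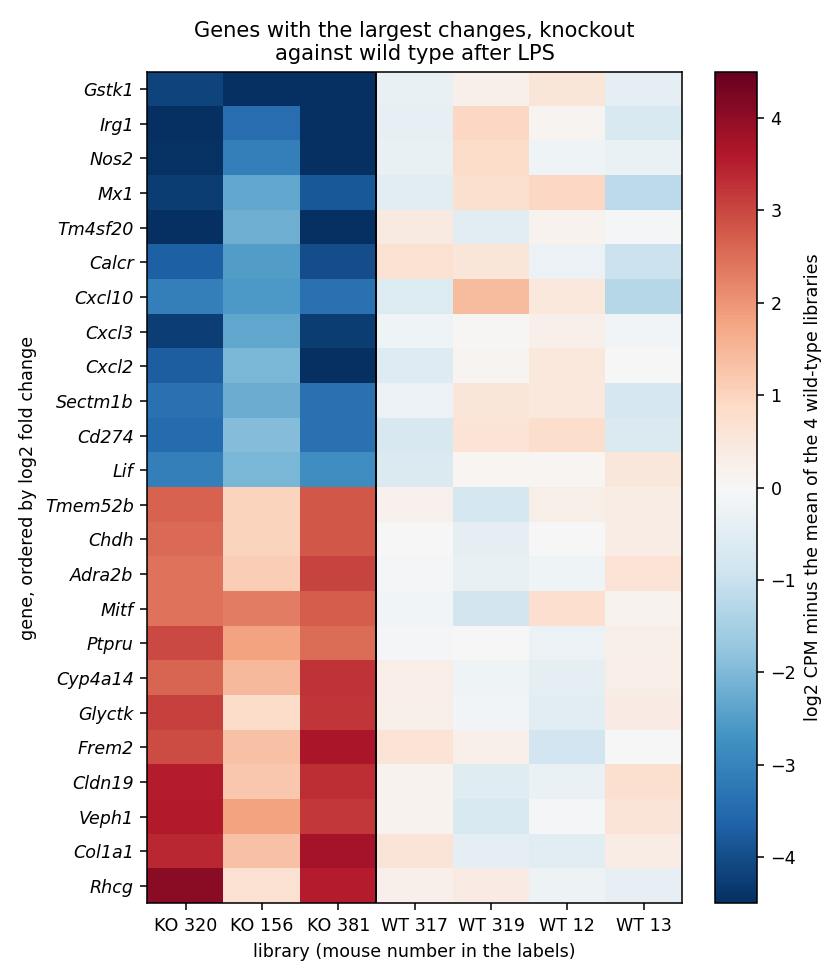
Heat map of the 12 largest falls and 12 largest rises among genes that passed with a mean of at least 5 CPM (rows) in the 7 LPS libraries (columns); colour is log2 CPM minus the mean of the 4 wild types. Knockout AKI-156 is paler than knockouts AKI-320 and AKI-381 in most rows, as in Rhcg with 5.72 CPM against 59.4 and 40.7 CPM.

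Genes that sense nucleic acids and the IRF factors had a median log2 fold change of -0.64, with 6 of 16 lower in every knockout and none passing. Irf7, the amplifier of type I interferon, was at 206, 248 and 155 CPM in the knockouts and 374, 444, 323 and 316.99 CPM in the wild types (log2 fold change -0.84 ± 0.24, adjusted p = 0.0853). Irf1 (-1.43), Irf8 (-1.196) and Dhx58 (-1.21) were also lower in every knockout. Among 20 tested cytokine receptors, JAK, STAT and SOCS genes, 6 were lower in every knockout and none passed, and these included the feedback inhibitors Socs1 (-2.76), Socs2 (-2.25) and Socs3 (-1.57). The kinase gene Jak1 overlapped at -0.02 ± 0.25.

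Antiviral interferon-stimulated genes were lower throughout in sign. All 24 tested had a negative log2 fold change, 17 were lower in every knockout, Mx1 and Samhd1 fell, and the median was -1.42. Mx1, which encodes a dynamin-like antiviral GTPase, was at 5.098, 19.2 and 6.897 CPM in the knockouts and 71.2, 159.5, 186 and 43.7 CPM in the wild types (log2 fold change -3.47 ± 0.63, adjusted p = 0.04904). Samhd1, whose product depletes the nucleotides that viruses need, was at 89.1, 181 and 96.8 CPM in the knockouts and 502, 851, 715 and 351 CPM in the wild types (log2 fold change -2.304 ± 0.38, adjusted p = 0.04904). The groups were apart in both. Ifit1 (-1.86 ± 0.52), Isg15 (-1.76 ± 0.405) and Rsad2 (-2.0 ± 0.48) were lower in every knockout and missed the threshold, with edgeR adjusted p of 0.0863, 0.0589 and 0.0632. Ifit2, the highest wild type of which was library AKI-12 with 1922 CPM, overlapped because knockout AKI-156 (214 CPM) exceeded wild type AKI-317 (208 CPM). Without library AKI-156, 14 of the 24 fell.

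The interferon-inducible GTPases, which attack the vacuoles of intracellular microbes, were lower in every knockout in 14 of 16 cases, Gbp5 and Gbp8 fell, and the median was -1.95. Gbp5 was at 42.8, 123 and 62.8 CPM in the knockouts and 314, 634, 638 and 299 CPM in the wild types (log2 fold change -2.63 ± 0.45, adjusted p = 0.04904). Gbp8 was at 5.22, 6.92 and 3.88 CPM in the knockouts and 18.2, 38.3, 23.7 and 14.2 CPM in the wild types (log2 fold change -2.14 ± 0.38, adjusted p = 0.04904), and its annotation overlaps Gbp9 and Gbp4 on the same strand, so that shared reads cannot be told apart. Gbp2, the most abundant, had 1963 ± 998 CPM (SD, n = 3) against 5746 ± 1467 CPM (SD, n = 4) and did not pass (log2 fold change -1.55 ± 0.37, adjusted p = 0.0632). Iigp1 (-2.32 ± 0.57) and Irgm1 (-1.802 ± 0.38), of the immunity-related GTPase family, were lower in every knockout. Without library AKI-156, 14 of the 16 fell. Members of this family resemble each other closely in sequence, and how shared reads were counted was not given in the sources used here.

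Antigen presentation lists had a median log2 fold change of -0.605 for class I and 0.234 for class II. With saline these medians were 0.186 and 0.287. Of 15 tested MHC class I and immunoproteasome genes, 9 were lower in every knockout and Tap1 fell, whereas of 8 MHC class II genes none was lower and 2 were higher in every knockout. Tap1, the peptide transporter of the class I pathway, was at 74.4, 98.8 and 83.1 CPM in the knockouts and 245, 316.8, 335 and 199 CPM in the wild types (log2 fold change -1.68 ± 0.25, adjusted p = 0.0351). The 3 knockouts lay close together, library AKI-156 included. Psmb8, an immunoproteasome subunit, was at -0.82 ± 0.26 without passing. The class II genes Cd74 (-0.18 ± 0.27) and H2-Ab1 (0.21 ± 0.19) overlapped. Scaled by library totals, Cd74 changed sign. Cd274, which encodes the T-cell inhibitor PD-L1 and is induced by interferon-gamma, was at 22.03, 61.8 and 23.3 CPM in the knockouts and 145, 370.4, 411 and 151 CPM in the wild types, and fell (log2 fold change -2.92 ± 0.53, adjusted p = 0.04904). Sectm1b, another of the 12 largest falls, was at 38.2, 82.9 and 38.1 CPM in the knockouts and 329, 567, 542 and 231 CPM in the wild types (log2 fold change -2.98 ± 0.43, adjusted p = 0.0351).

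**Figure D4:**
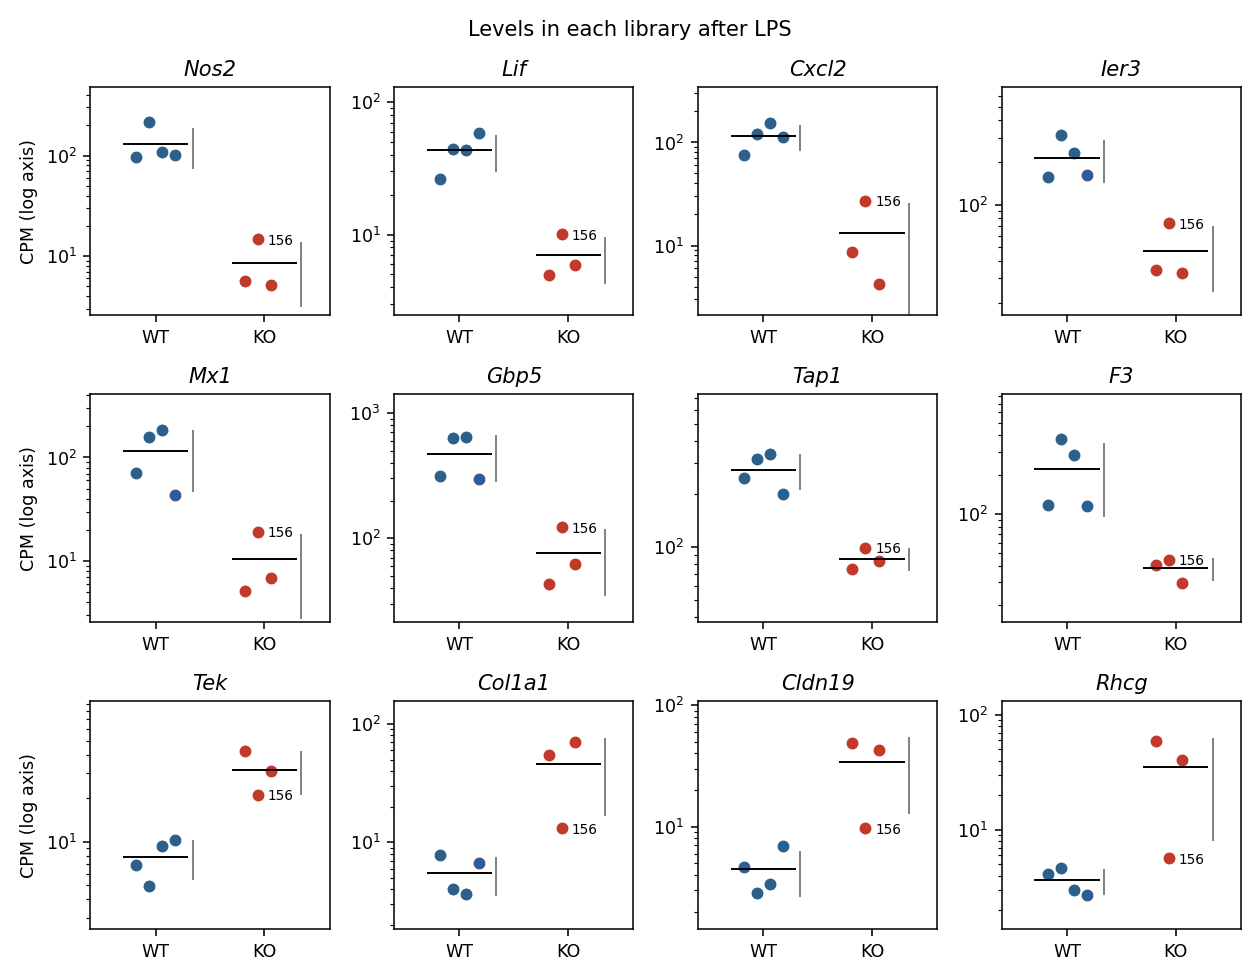
CPM on a log axis in each of the 7 LPS libraries for 12 genes, wild types left and knockouts right; horizontal lines are group means, grey lines are 1 SD either side, and library AKI-156 is labelled. Nos2, Lif, Cxcl2, Ier3, Mx1, Gbp5, Tap1 and F3 are lower in all 3 knockouts and Tek, Col1a1, Cldn19 and Rhcg higher.

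The products that macrophages and tubules make to kill microbes were among the deepest falls. Irg1, whose enzyme makes the antimicrobial metabolite itaconate, was at 1.99, 13.1 and 3.76 CPM in the knockouts and 110.0, 268, 154 and 87.2 CPM in the wild types (log2 fold change -4.63 ± 0.69, adjusted p = 0.0351). Nos2, the inducible nitric oxide synthase, was at 5.68, 14.7 and 5.19 CPM in the knockouts and 97.2, 217, 109 and 100.2 CPM in the wild types (log2 fold change -3.94 ± 0.48, adjusted p = 0.0351). All knockouts lay well below all wild types. Ass1, which returns citrulline to arginine for nitric oxide synthesis, was at 92, 87.5 and 81.1 CPM in the knockouts and 238, 336, 216 and 130.4 CPM in the wild types (log2 fold change -1.41 ± 0.3, adjusted p = 0.0545), and Gch1, which makes the cofactor of the synthase, was at 11.7, 18.3 and 9.58 CPM in the knockouts and 34.4, 36.8, 28.1 and 29.2 CPM in the wild types (log2 fold change -1.28 ± 0.26, adjusted p = 0.0532). Neither passed, although the groups did not overlap. Of the 10 genes of nitric oxide, arginine and itaconate tested, 6 were lower in every knockout and 4 fell without library AKI-156. Arg1, whose arginase competes for the same arginine, was at 1.64, 1.14 and 1.43 CPM in the knockouts and 0.642, 0.2198, 2.09 and 0.912 CPM in the wild types (log2 fold change 0.54 ± 0.63, adjusted p = 0.642), low throughout and overlapping between the groups.

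Other effector systems moved in single genes. Ptgs2, the inducible cyclooxygenase, was at 4.22, 13.02 and 5.81 CPM in the knockouts and 20.04, 40.3, 90.4 and 74.2 CPM in the wild types and missed the threshold (log2 fold change -2.87 ± 0.57, adjusted p = 0.0531), while the list of 10 prostaglandin genes had a median of 0.198. None of 12 acute-phase genes or 14 complement genes passed, with medians of -0.58 and 0.01. Fgg, a fibrinogen chain and among the most abundant transcripts after LPS, had 5270 ± 3519 CPM (SD, n = 3) against 8167 ± 2960 CPM (SD, n = 4) (log2 fold change -0.63 ± 0.45, adjusted p = 0.438). C3, the central complement protein, had 1289 ± 489.7 CPM (SD, n = 3) against 1216 ± 339 CPM (SD, n = 4) (log2 fold change 0.08 ± 0.32, adjusted p = 0.905). Orm3, an orosomucoid gene outside that list, fell from 8.35, 12.5, 5.12 and 4.56 CPM to 0.527, 1.08 and 0.741 CPM (log2 fold change -3.27 ± 0.49, adjusted p = 0.0351). Of 12 inflammasome, pyroptosis and necroptosis genes 4 were lower in every knockout, among them Ripk3 (-1.16) and Mlkl (-0.95), the kinase and the pore protein of necroptosis, and none passed.

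Coagulation genes gave 1 fall. F3 was at 40.8, 44.8 and 29.7 CPM in the knockouts and 118, 375, 284 and 116 CPM in the wild types (log2 fold change -2.54 ± 0.45, adjusted p = 0.04904), and no knockout came near the lowest wild type. Thbd, the anticoagulant thrombomodulin (-0.94 ± 0.23), and Plaur, the urokinase receptor (-1.61 ± 0.32), were also lower in every knockout without passing. F2r, the thrombin receptor, was higher in every knockout (1.03). Of the 10 genes tested, 6 were lower and 1 higher in every knockout, and without library AKI-156 a total of 5 fell and 2 rose.

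Macrophage markers lay on the other side. Of 15 tested, 13 had a positive log2 fold change, 7 were higher in every knockout against 9.57% of all tested genes, none was lower, and the median was 1.04. Cx3cr1, the fractalkine receptor of resident kidney macrophages, was at 5.16, 1.33 and 2.96 CPM in the knockouts and 0.257, 0.293, 0 and 0.1402 CPM in the wild types (log2 fold change 4.12 ± 0.73, adjusted p = 0.04904), and rose. Its annotation overlaps 5 other genes, 3 of them on its own strand. Adgre1, which encodes the macrophage antigen F4/80, was at 4.34, 5.08 and 5.24 CPM in the knockouts and 0.257, 0.806, 1.87 and 1.68 CPM in the wild types (log2 fold change 2.08 ± 0.54, adjusted p = 0.0743). C1qa, a complement subunit made by resident macrophages, was at 31.1, 19.9 and 27.1 CPM in the knockouts and 9.76, 6.37, 5.05 and 12.9 CPM in the wild types (log2 fold change 1.61 ± 0.33, adjusted p = 0.0532). These levels are low, but every knockout exceeded every wild type, and library AKI-156 did not stand apart from the other knockouts in Adgre1. Mrc1, the mannose receptor, was at 6.45, 6.67 and 6.67 CPM in the knockouts and 3.92, 2.27, 2.09 and 2.94 CPM in the wild types (log2 fold change 1.23 ± 0.31, adjusted p = 0.0704). Summed over the 15 markers, the knockouts held 319.6 to 418 CPM and the wild types 265 to 352 CPM, so that the summed level overlapped, and its part in the other results was not tested. Without library AKI-156, 5 of the 15 rose, and with saline these genes had a median of 0.203.

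The lists named after macrophage states share genes with the lists above. Of 13 tested M1-type markers, 9 were lower in every knockout, Nos2, Cxcl10 and Irg1 fell, and the median was -2.46. Cd86, a surface marker of that state, overlapped between groups (-1.01 ± 0.48). Of 9 M2-type markers 2 were higher and 1, Tgm2, lower in every knockout, and none passed. Monocyte and neutrophil markers overlapped in 14 of 15 genes. S100a9, a neutrophil calcium-binding protein, was at 17.6, 120.0 and 11.9 CPM in the knockouts and 16.3, 17.2, 89.2 and 59.6 CPM in the wild types (log2 fold change 0.13 ± 0.82, adjusted p = 0.945). Libraries AKI-156, AKI-12 and AKI-13 were high and the others low, across genotypes. Plac8, found in monocytes and also in epithelia, was the only marker apart (-1.38 ± 0.395) and made up most of the list's summed level, 309 to 1043 CPM in the knockouts and 1126 to 1310.4 CPM in the wild types. None of 8 tested T, NK, B and dendritic cell markers was apart, and their summed level was 27.4 to 31.9 CPM in the knockouts and 22.2 to 33.9 CPM in the wild types, with Xcr1 at 0.

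Endothelial markers were mostly higher. Of 15 tested, 8 were higher and 2 lower in every knockout, Tek and Plvap rose, and the median was 0.55. Tek, the angiopoietin receptor Tie2 that keeps vessels quiescent, was at 42.4, 21.2 and 30.9 CPM in the knockouts and 6.87, 4.98, 9.37 and 10.2 CPM in the wild types (log2 fold change 2.0 ± 0.31, adjusted p = 0.0459). Plvap, which forms the diaphragms of capillary pores, was at 119.7, 47.1 and 90.2 CPM in the knockouts and 25.4, 33.99, 23.9 and 28.2 CPM in the wild types (log2 fold change 1.62 ± 0.297, adjusted p = 0.04904). Pecam1 was at 106, 80.6 and 108 CPM in the knockouts and 44, 39.04, 42.8 and 59.6 CPM in the wild types and missed the threshold (log2 fold change 1.08 ± 0.21, adjusted p = 0.0531). Cdh5, the cadherin of endothelial junctions, and Esam, a junctional adhesion molecule, went the other way at -0.48 ± 0.19 and -0.66 ± 0.23, lower in every knockout without passing. Without library AKI-156, 5 of the 15 rose and none fell.

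Col1a1, Col1a2, Col3a1 and Col6a1 rose among the collagen genes. Of 19 tested collagen and matrix genes, 11 were higher in every knockout and none lower, 4 rose, and the median was 1.07. Col1a1, the main chain of type I collagen, was at 54.8, 13.3 and 70.6 CPM in the knockouts and 7.84, 4.03, 3.68 and 6.66 CPM in the wild types (log2 fold change 3.05 ± 0.51, adjusted p = 0.04904). Col1a2 was at 76.9, 37.6 and 103 CPM in the knockouts and 22.5, 13.9, 17.96 and 21.1 CPM in the wild types (log2 fold change 1.94 ± 0.32, adjusted p = 0.04904), and its annotation overlaps another gene on the same strand. Library AKI-156 had intermediate levels, above every wild type and well below knockouts AKI-320 and AKI-381. Col3a1 was at 93.99, 62.4 and 118 CPM in the knockouts and 27.6, 15.5, 22.1 and 37.2 CPM in the wild types (log2 fold change 1.84 ± 0.32, adjusted p = 0.04904), and Col6a1, a chain of the beaded filaments, at 19.5, 9.27 and 21.1 CPM in the knockouts and 5.72, 4.47, 5.34 and 5.26 CPM in the wild types (log2 fold change 1.68 ± 0.305, adjusted p = 0.04904). Without library AKI-156, 12 of the 19 rose.

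In the saline libraries no collagen gene named here passed. With saline, Col1a1 had a log2 fold change of -0.84 (edgeR adjusted p = 0.129), Col1a2 one of -0.52 (0.267) and Col3a1 one of -0.85 (0.248). Of 12 fibroblast, pericyte and smooth muscle markers, which include both type I collagen genes, 3 were higher in every knockout. Of 10 matrix proteases and inhibitors 3 were lower in every knockout, none was higher, and none passed. Frzb, a secreted inhibitor of Wnt, rose from 18.1, 19.05, 16.4 and 28.7 CPM to 77.99, 56.2 and 66.5 CPM (log2 fold change 1.7 ± 0.24, adjusted p = 0.0351). Frem2, an adhesion protein of epithelial basement membranes, rose from 2.44, 1.83, 0.865 and 1.61 CPM to 12.1, 3.94 and 20.1 CPM (log2 fold change 2.82 ± 0.53, adjusted p = 0.04904).

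Along the nephron, the lists of distal segments had medians above 0 and that of the proximal tubule lay near 0. None of 10 podocyte markers was apart, with a median of 0.53. Of 18 proximal tubule markers, 5 were lower and 1 higher in every knockout, none passed, and the median was 0.04. Kap, an androgen-regulated protein of the proximal tubule and the most abundant of them, was at 8179, 9829 and 7028 CPM in the knockouts and 16627, 21283, 28117 and 19316 CPM in the wild types (log2 fold change -1.35 ± 0.3, adjusted p = 0.0567). Slc34a1, the phosphate transporter, was at 244, 348 and 187 CPM in the knockouts and 684, 1007, 798 and 433 CPM in the wild types (log2 fold change -1.49 ± 0.33, adjusted p = 0.0567). Gatm, the first enzyme of creatine synthesis, was at 44.5, 21.3 and 46.2 CPM in the knockouts and 13.04, 8.13, 16.1 and 14.8 CPM in the wild types and higher in every knockout (log2 fold change 1.52 ± 0.32, adjusted p = 0.0532). Lrp2, the endocytic receptor megalin, overlapped (0.46 ± 0.27). Slc22a7, an organic anion transporter outside that list, fell from 81.9, 71.1, 54.6 and 45.9 CPM to 15.9, 21.3 and 23.3 CPM (log2 fold change -1.65 ± 0.26, adjusted p = 0.0459). Summed over the list, to which Kap gave most, the knockouts held 11656 to 13114 CPM and the wild types 21081 to 33886 CPM. Without library AKI-156, 3 of the 18 rose and 4 fell, against 7.12% and 5.7% of all genes tested then.

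In the thick ascending limb, which reabsorbs salt, calcium and magnesium, 4 of 10 markers were higher in every knockout, none was lower, and the median was 1.21. Cldn19, a claudin of its magnesium pathway, was at 48.7, 9.78 and 42.6 CPM in the knockouts and 4.69, 2.86, 3.39 and 6.94 CPM in the wild types (log2 fold change 2.91 ± 0.51, adjusted p = 0.04904). Bsnd, the barttin subunit of its chloride channels, was at 25.5, 5.399 and 22.3 CPM in the knockouts and 2.698, 2.42, 4.04 and 4.21 CPM in the wild types (log2 fold change 2.41 ± 0.48, adjusted p = 0.0531), and Kcnj1, its potassium channel, at 96.6, 25.3 and 101 CPM in the knockouts and 11.2, 8.72, 23.7 and 20.5 CPM in the wild types (log2 fold change 2.21 ± 0.48, adjusted p = 0.0563). Bsnd and Kcnj1 did not pass. In all 3 genes library AKI-156 held a small part of what knockouts AKI-320 and AKI-381 held and still exceeded every wild type. Umod, which encodes uromodulin, was at 2190, 2207 and 2878 CPM in the knockouts and 1080, 867, 1693 and 1750 CPM in the wild types (log2 fold change 0.85 ± 0.29, adjusted p = 0.138), without that gap. Slc12a1, the salt cotransporter of the segment, overlapped (1.41 ± 0.68). Without library AKI-156, 5 of the 10 rose.

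The collecting duct gave 2 of the larger rises. Rhcg, the ammonia channel of the collecting duct, was at 59.4, 5.72 and 40.7 CPM in the knockouts and 4.17, 4.61, 3.03 and 2.73 CPM in the wild types (log2 fold change 3.27 ± 0.61, adjusted p = 0.04904). Its annotation overlaps another gene on the same strand. Elf5, a transcription factor of principal cells, was at 8.15, 1.72 and 6.38 CPM in the knockouts and 0.642, 0.4395, 0.361 and 0.771 CPM in the wild types (log2 fold change 3.27 ± 0.56, adjusted p = 0.04904). Both were highest in knockouts AKI-320 and AKI-381. In Rhcg library AKI-156 exceeded the highest wild type only slightly, while in Elf5 it was at 1.72 CPM against 0.771 CPM in the highest wild type. Within intercalated cells the markers divided, as Slc26a4, the pendrin of base-secreting cells (-0.96 ± 0.22), and Foxi1, a transcription factor of these cells (-0.83 ± 0.25), were lower in every knockout without passing. Slc4a1, the anion exchanger of acid-secreting cells, was at 10.8, 0.508 and 12.5 CPM in the knockouts and 2.06, 0.586, 0.216 and 0 CPM in the wild types, and overlapped (log2 fold change 3.43 ± 1.09, adjusted p = 0.113). Without library AKI-156, 7 of 10 intercalated and 4 of 10 principal cell markers rose and 1 intercalated marker fell. The adrenal marker genes Cyp11b1 and Cyp11b2 were at 0 in every LPS library. The marker lists of fat, adrenal cortex, urothelium and red blood cells, tissues a kidney sample can carry, gave no gene that passed, and among them only Slc25a37, a mitochondrial iron importer, was apart (-1.12 ± 0.22).

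Of 13 tested injury markers none passed, and only Timp2 was apart, higher in the knockouts (1.12 ± 0.25). Havcr1, the tubular injury marker KIM-1, was at 772, 1035 and 779 CPM in the knockouts and 1247, 1102, 1003 and 1528 CPM in the wild types (log2 fold change -0.501 ± 0.24, adjusted p = 0.252). Lcn2, the marker NGAL, was at 3097, 4538 and 3683 CPM in the knockouts and 5133, 4550, 4193 and 4214 CPM in the wild types (log2 fold change -0.26 ± 0.24, adjusted p = 0.554), and changed sign when scaled by library totals. The groups overlapped in both. Spp1, osteopontin, overlapped as well (0.35 ± 0.35). Sox9 and Krt20 were at log2 fold changes of -1.88 and -1.16, and in both library AKI-156 lay inside the wild-type range and knockouts AKI-320 and AKI-381 below it.

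**Figure D5:**
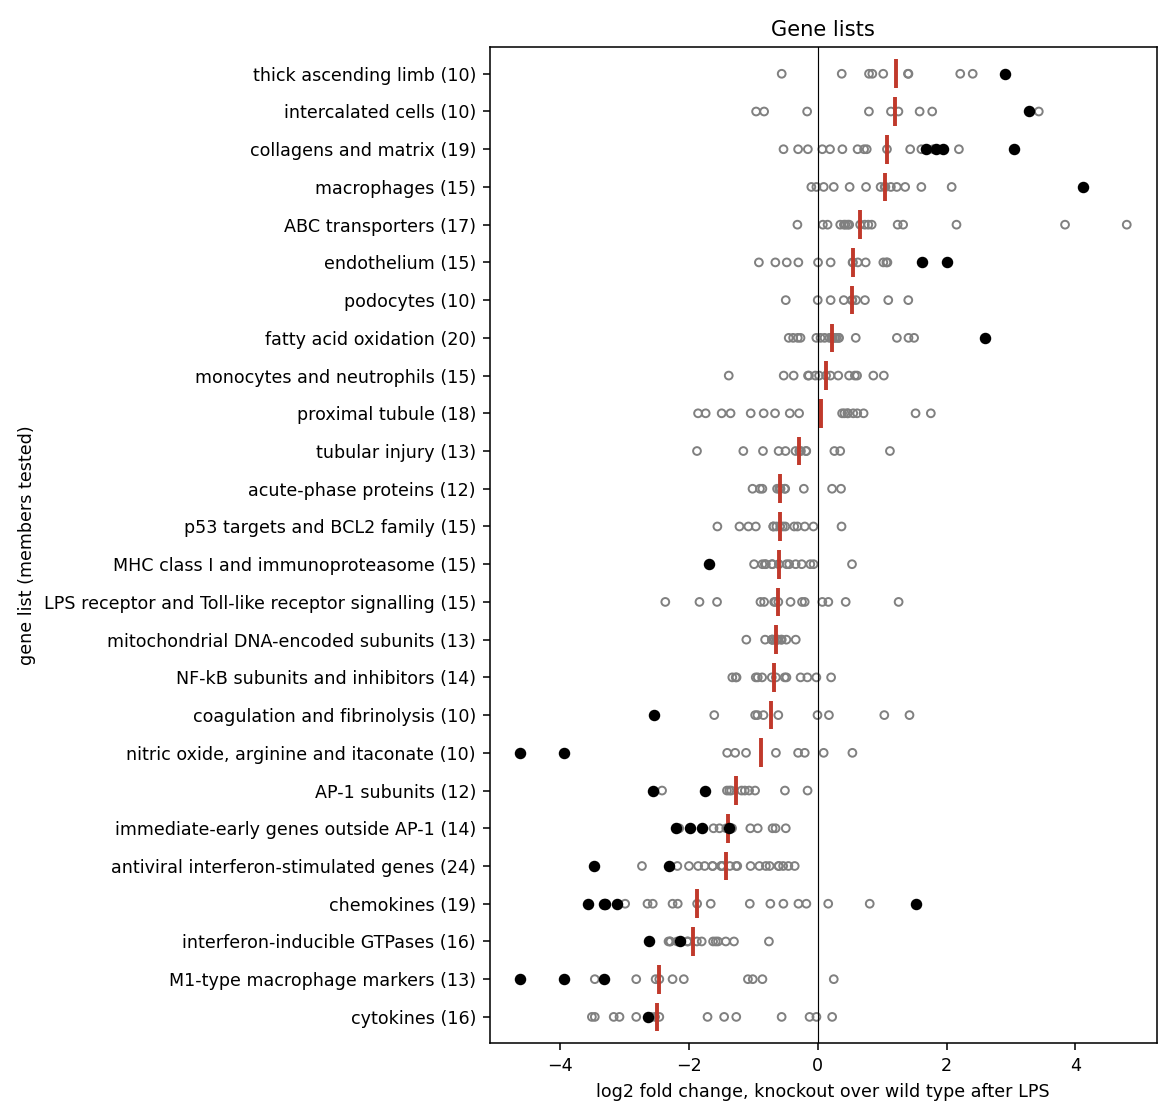
Log2 fold change of knockout over wild type after LPS (x axis) for each tested member of 26 gene lists (y axis, with the number tested); filled points passed at an adjusted p below 0.05, open points did not, and bars are list medians. Interferon, cytokine and immediate-early lists lie to the left, thick ascending limb, intercalated, collagen and macrophage lists to the right.

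Fat oxidation, the main fuel of the proximal tubule, had 4 of 20 genes higher and 1 lower in every knockout, with a median of 0.23. Over all tested genes 9.57% were higher and 8.88% lower in every knockout. Cyp4a14, a fatty acid hydroxylase and target of PPAR-alpha, was at 508, 228 and 786 CPM in the knockouts and 101, 71.6, 62.2 and 101 CPM in the wild types, and rose (log2 fold change 2.59 ± 0.38, adjusted p = 0.0351). Its relative Cyp4a10 was at 709.6, 288 and 777 CPM in the knockouts and 234, 214, 189 and 201 CPM in the wild types and missed the threshold (log2 fold change 1.496 ± 0.31, adjusted p = 0.0532). Cyp4a genes are close paralogs. Ppargc1a, the coactivator of mitochondrial genes, was at 51.6, 41.1 and 83.1 CPM in the knockouts and 22.2, 11.6, 26.2 and 28.3 CPM in the wild types (log2 fold change 1.41 ± 0.33, adjusted p = 0.0622). Chdh, which oxidises choline to the osmolyte betaine, rose from 50.6, 37.9, 50.2 and 63.4 CPM to 289, 98.96 and 348 CPM (log2 fold change 2.28 ± 0.38, adjusted p = 0.04904). Glyctk, glycerate kinase, rose from 9.96, 7.62, 5.99 and 10.9 CPM to 70.6, 14.9 and 77.8 CPM (log2 fold change 2.66 ± 0.48, adjusted p = 0.04904).

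DsbA-L is a mitochondrial protein, and mitochondrial transcripts were compared for that reason. Counts from the 13 mitochondrial DNA genes made up 14.9 ± 2.03% of each knockout library (SD, n = 3) and 18.9 ± 3.24% of each wild-type library (SD, n = 4). The difference of -4.08 percentage points had a p of 0.143 by exact two-sided permutation over libraries, where the smallest p possible was 0.0286. All 13 genes had a negative log2 fold change with a median of -0.64, 1 was lower in every knockout, and none passed. Of 19 nuclear-encoded respiratory chain genes 3 were lower in every knockout and none passed. mt-Co1, of cytochrome oxidase, was at -0.67 ± 0.34, and Atp5b, of the ATP synthase, at -0.24 ± 0.22, with a change of sign for Atp5b when scaled by library totals. Mtfp1, a protein of mitochondrial fission, rose from 0.4496, 0.659, 0.361 and 0.491 CPM to 8.38, 1.21 and 5.02 CPM (log2 fold change 3.29 ± 0.61, adjusted p = 0.04904), and the carrier gene Slc25a48 from 8.03, 8.86, 5.12 and 10.1 CPM to 46.1, 20.5 and 34.5 CPM (log2 fold change 2.07 ± 0.32, adjusted p = 0.0451).

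Other metabolic lists held no gene that passed. Glycolysis had 2 of 16 genes higher and 3 lower in every knockout, the latter being the regulated steps Hk2 (-1.71), Pfkfb3 (-1.48) and the glucose transporter Slc2a1 (-1.09). Ldha and Pkm, the most abundant, overlapped at -0.09 and -0.13 and changed sign with library totals. Of 7 gluconeogenesis genes, 2 were lower in every knockout, and Pck1 overlapped (0.04 ± 0.41). Sterol synthesis had 2 of 15 higher and 1 lower in every knockout, against 9.57% and 8.88% of all tested genes. ABC transporters had 6 of 17 higher and none lower in every knockout, and Abcc2, the export pump MRP2, was at 209.9, 88.2 and 312 CPM in the knockouts and 48.2, 28.7, 39.5 and 66.3 CPM in the wild types (log2 fold change 2.15 ± 0.41, adjusted p = 0.0501). That value lay just past the threshold. Abcg2, a urate and drug exporter, was at 0.73 ± 0.24.

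The stress lists held no gene that passed. Of 15 NRF2 targets and antioxidant genes, 6 were lower and 1 higher in every knockout. Sod2, the mitochondrial superoxide dismutase and an NF-kB target, was at 307, 450.3 and 252 CPM in the knockouts and 691, 815, 780.1 and 608 CPM in the wild types (log2 fold change -1.105 ± 0.26, adjusted p = 0.0593). Nqo1, a quinone reductase and classic NRF2 target, was at 133, 66.5 and 110.2 CPM in the knockouts and 51.4, 49.1, 46.01 and 53.7 CPM in the wild types (log2 fold change 1.04 ± 0.24, adjusted p = 0.0589), the only one of the list higher in every knockout. Gpx1, the cytosolic glutathione peroxidase, was lower in every knockout (-0.75 ± 0.29). Xbp1, of the unfolded protein response, was at 269.8, 658 and 270.0 CPM in the knockouts and 1151, 1334, 1075 and 849 CPM in the wild types (log2 fold change -1.47 ± 0.36, adjusted p = 0.0659), and Hspa8, a constitutive chaperone, at -0.83 ± 0.25. Of 15 p53 targets and BCL2 family genes, 6 were lower in every knockout, among them Cdkn1a, the cell-cycle inhibitor p21 (-1.08 ± 0.27).

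Gdf15 and Stc1, genes of secreted stress proteins, fell. Gdf15, a hormone released by stressed cells that acts on the brainstem, was at 33.6, 27.6 and 39.6 CPM in the knockouts and 121, 125, 82.2 and 97.4 CPM in the wild types (log2 fold change -1.66 ± 0.23, adjusted p = 0.0351). Stc1, the gene of stanniocalcin, was at 3.87, 4.45 and 5.64 CPM in the knockouts and 16.3, 19.1, 22.7 and 13.95 CPM in the wild types (log2 fold change -1.95 ± 0.27, adjusted p = 0.0351). In both genes the 3 knockouts lay close together, library AKI-156 included, and below every wild type. Eif4ebp3, a repressor of cap-dependent translation, was at 54.03, 82.6 and 44.8 CPM in the knockouts and 230.5, 246, 224 and 147 CPM in the wild types (log2 fold change -1.81 ± 0.28, adjusted p = 0.0458). Its annotation overlaps Ankhd1 on the same strand, so that shared reads cannot be told apart. Calcr, the calcitonin receptor, was at 0.645, 1.46 and 0.513 CPM in the knockouts and 13.4, 12.01, 6.85 and 4.21 CPM in the wild types (log2 fold change -3.38 ± 0.55, adjusted p = 0.04904), and Tm4sf20, a tetraspan membrane protein, at 1.88, 10.9 and 1.596 CPM in the knockouts and 65.6, 35.2, 55.7 and 48.1 CPM in the wild types (log2 fold change -3.42 ± 0.64, adjusted p = 0.0493). Clock genes were split, with 3 of 15 higher, including Hlf (1.68 ± 0.33), and 4 lower in every knockout. Of 13 cell division genes 1 was apart. Ribosomal protein genes (77 tested, median -0.27) held 6 genes that were lower in every knockout, and proteasome genes (37 tested, median -0.31) held 7. Scaled by library totals, these medians were 0.046 and 0.012. Over all tested genes 8.88% were lower in every knockout, and no gene of either list passed.

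The remaining large rises were in genes of varied roles. Veph1 was at 43.4, 12.8 and 32.7 CPM in the knockouts and 4.05, 2.27, 3.46 and 5.47 CPM in the wild types (log2 fold change 2.96 ± 0.42, adjusted p = 0.0351). Ptpru, a receptor tyrosine phosphatase of cell contacts, was at 39.7, 17.9 and 28.8 CPM in the knockouts and 4.95, 5.201, 4.25 and 6.1 CPM in the wild types (log2 fold change 2.49 ± 0.29, adjusted p = 0.0351). Mitf, a transcription factor of the lysosomal and pigment-cell programme, was at 14.8, 13.3 and 17.7 CPM in the knockouts and 2.505, 1.54, 4.54 and 3.02 CPM in the wild types (log2 fold change 2.396 ± 0.35, adjusted p = 0.0351), and library AKI-156 was level with the other knockouts. Adra2b, the alpha-2B adrenergic receptor, was at 89.5, 35.5 and 136 CPM in the knockouts and 15.4, 12.96, 14.1 and 25.2 CPM in the wild types (log2 fold change 2.36 ± 0.41, adjusted p = 0.04904). Tmem52b was at 115, 36.8 and 129 CPM in the knockouts and 20.9, 10.8, 22.1 and 23.4 CPM in the wild types (log2 fold change 2.28 ± 0.41, adjusted p = 0.04904). In Adra2b and Tmem52b library AKI-156 lay between the wild types and the other knockouts. Dcdc2a, whose doublecortin domains bind microtubules of cilia, rose from 26.6, 24.6, 31.01 and 30.6 CPM to 81.5, 59.8 and 88.01 CPM (log2 fold change 1.44 ± 0.205, adjusted p = 0.0351), and Arhgap24, a regulator of Rac, from 24.3, 21.2, 35.1 and 32.04 CPM to 88.3, 50.7 and 102 CPM (log2 fold change 1.51 ± 0.28, adjusted p = 0.04904).

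Pet117 had the smallest p of all genes and was the only one called under every alternative, but with saline its level did not follow the genotype. It encodes an assembly factor of cytochrome oxidase, had 88, 123 and 155 counts in the knockouts and 1 count in each wild type, and rose by 6.55 ± 0.45 on the log2 scale (edgeR adjusted p = 0.000705). The saline libraries, however, held 1, 121 and 1 counts in the knockouts and 1, 118 and 76 in the wild types, so that the gene was near 0 or well above it in either genotype. It lies within Csrp2bp on the same strand (chr2:144368996-144373721 in GRCm38). Over the 13 libraries, 40 genes had groups with libraries at 1 count or fewer beside libraries at 50 or more, 29 of them overlap another gene, and Pet117 was the only one called. Clec18a, a C-type lectin gene at chr8:111058920-111092426, was likewise near 0 in the wild types (1, 4, 1 and 3 counts) and at 142, 24 and 175 counts in the knockouts (log2 fold change 5.32 ± 0.75, adjusted p = 0.0351). It overlaps no other gene.

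Genes near the deleted locus did not stand apart. Within 10 Mb of Gstk1, 128 other genes were tested, none passed, and 18.75% had groups that did not overlap, against 18.436% of all other genes. Nnt, which is truncated in the C57BL/6J substrain, overlapped between the groups at 37.1, 36.3 and 77.98 CPM in the knockouts and 77.7, 64.8, 54.7 and 44.5 CPM in the wild types (log2 fold change -0.26 ± 0.31, adjusted p = 0.656).

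With saline, 5 genes were higher and 4 lower in the knockout out of 14849 tested (0.0337% and 0.0269%, or 0.0606% together), and 2094 had p below 0.05 without adjustment. Gstk1 (-4.04, edgeR adjusted p = 0.000193) was the only gene called both with saline and under LPS. Ciart, a repressor of the circadian clock, was at 10.9, 9.09 and 13.2 CPM in knockouts N1, N2 and N3 and 1.26, 1.75 and 1.38 CPM in wild types N1, N2 and N3 with saline, and was higher (log2 fold change 2.91, edgeR adjusted p = 0.00685). Under LPS it was lower in every knockout (-0.73 ± 0.36). Dtx4, a Notch-related ubiquitin ligase, was lower with saline (-1.53, edgeR adjusted p = 0.0457) and higher in every LPS knockout without passing (0.68 ± 0.18). Ptma (1.002) and Ccnc (0.94) were higher and Srp72 (-0.74) lower with saline. Of the 102 genes that differed under LPS, 86 were abundant enough to test with saline, where their median absolute log2 fold change was 0.246, against 0.158 over all genes.

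The genotype difference under LPS was also tested against that with saline in 1 fit of all 13 libraries. The spread was shared by LPS and saline libraries, and the saline libraries lay closer together. With that shared spread the LPS comparison itself gave 1373 higher and 988 lower genes in place of 48 and 54, so these calls are less strict. This interaction passed for 213 genes in the higher and 117 in the lower direction of 15703 tested (1.36% and 0.745%, or 2.1% together), with 3487 genes at p below 0.05 without adjustment. Of the 102 genes called under LPS, 66 were among them, 29 that fell and 37 that rose. Both tests used the same LPS libraries, so a large overlap was favoured in advance and is no separate support. Ptpru had an interaction of 2.62 ± 0.33, adjusted p = 0.00482. For Dcdc2a it was 2.16 ± 0.27, adjusted p = 0.00381, for Eif4ebp3 -2.904 ± 0.35, adjusted p = 0.00377, and for Zfp36 -2.14 ± 0.28, adjusted p = 0.006703. Among genes that fell deeply, Nos2 had -3.74 ± 0.75, adjusted p = 0.0369, and Sectm1b had -3.37 ± 0.49, adjusted p = 0.0122. Because all LPS mice were male and all saline mice female by their transcripts, sex and treatment cannot be told apart in this term. Gstk1 itself did not pass this test (-0.97 ± 0.65, adjusted p = 0.402).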

How the data were processed

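Whole-kidney RNA of 13 mice was sequenced, 1 library per mouse, and the 7 LPS libraries (3 knockout, 4 wild type) were compared. The table the authors deposited gives, for each of 34745 genes and each library, a raw count and an FPKM, and its columns were matched to samples by name. The deposited FPKM values equal counts scaled by gene length and by the library's total count (gene lengths implied by different libraries differed by at most 0.0018%) and entered no test. Named without roles in the submitters' processing notes are TopHat2 2.0.9, TopHat, HISAT2, edgeR and the human build hg38. The identifiers are mouse, 34344 of them were found in GENCODE M21 (GRCm38), all on the same chromosome, and coordinates are read as GRCm38. The counting tool, any strand setting and any batch are not stated in the sources used here, so overlapping, antisense and near-identical genes are uncertain.

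The deposited counts were tested with edgeR 4.0.16 under R 4.3.3: filterByExpr with a minimum count of 10, TMM factors, a quasi-likelihood test of the 7 LPS libraries, Benjamini-Hochberg adjustment over the 14709 genes tested, and calls at an adjusted p below 0.05. SE is the log2 fold change divided by the square root of F. The 6 saline libraries and the interaction over all 13 were fitted likewise. Replicates differed by a chi-square of 42.7 to 121 per degree of freedom, so none was a repeat of another library, and whether each label is a separate litter or cage is not known. In counts simulated for the LPS comparison (14455 genes), 16 of 100 genes changed 2-fold and 94 of 100 changed 4-fold were recovered, with 6 unchanged genes called. With a lower simulated dispersion (14546 genes), 94 and 100 of 100 were recovered.

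Named are the 12 largest falls and rises among called genes with a mean of at least 5 CPM, up to 4 called members of each of 56 lists by smallest p, or its 2 most abundant where none was called, 22 genes fixed by name, and 6 genes for saline and interaction. Every other gene named was chosen after its values were seen, as were the promoters shown and the forms of the kB and ISRE motifs, which replaced a narrower kB and a wider ISRE form searched first. A few named genes are not reported here. Members and lists were chosen with earlier results of these data known. Alternatives were RLE factors, library totals, DESeq2 1.42.0, limma-voom from limma 3.58.1 with and without sample weights, robust edgeR, other filters, a fold minimum, all 13 libraries in the fit, each library left out, and a block for the saline label numbers.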

Additional observations from a re-analysis of the deposited data

Results flagged for a closer look

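In 6 of 209 groups of 4 wild-type LPS libraries, 1 library lay far from the other 3 by Dixon's ratio, where chance gives about 1 in 20. Library AKI-319 was high for Nos2 (216.5 CPM against 97.2 to 109 CPM), Cdkn1a (443.5 against 310.1 to 314 CPM), Plaur (105.9 against 60.6 to 68.2 CPM) and Tgm2 (1214 against 760.4 to 836 CPM). Library AKI-13 was low for Cxcl5 (106.1 against 168 to 172 CPM), and library AKI-12 was low for Abca3 (198.2 against 274 to 283 CPM).

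For 58 of the genes followed in the text the genotype difference under LPS differed from that with saline by edgeR's interaction test at an adjusted p below 0.05. Values are the log2 difference under LPS minus that with saline, and sex and treatment cannot be told apart in them. The test shared its spread over LPS and saline libraries, and some of these genes did not pass under LPS. Among matrix genes it was 3.87 for Col1a1, 2.44 for Col1a2, 2.66 for Col3a1, 2.77 for Col5a1, 2.13 for Col6a1, 2.04 for Col12a1, 2.48 for Frem2 and 1.47 for Frzb. Among tubular and transport genes it was 2.74 for Cldn19, 2.26 for Bsnd, 2.5 for Kcnj1, 3.42 for Rhcg, 2.10 for Abcc2 and 2.30 for Gatm, and -2.03 for Kap, -2.05 for Slc22a7 and -1.16 for Slc25a37. Among metabolic genes it was 2.48 for Cyp4a14, 2.12 for Chdh, 2.88 for Glyctk and 3.52 for Mtfp1. Among genes of vessels, macrophages and signalling that were higher it was 2.31 for Tek, 4.25 for Cx3cr1, 4.73 for Clec18a, 2.71 for Mitf, 2.62 for Ptpru, 2.16 for Dcdc2a, 1.73 for Arhgap24, 3.18 for Veph1, 2.31 for Tmem52b, 2.74 for D3Ertd751e and 2.19 for Dtx4.

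Among inflammatory and interferon genes the difference was -3.74 for Nos2, -3.29 for Cxcl10, -2.85 for Cd274, -3.37 for Sectm1b, -2.62 for Gbp5, -2.03 for Irgm1, -2.15 for Samhd1, -1.92 for Tap1, -2.33 for F3 and -1.79 for Plaur. Among immediate-early, NF-kB and AP-1 genes and their brakes it was -2.69 for Egr1, -2.77 for Fos, -1.86 for Junb, -2.13 for Ier2, -2.84 for Ier3, -2.14 for Zfp36, -2.13 for Zc3h12a, -1.62 for Nfkbia, -1.82 for Nfkbiz and -1.15 for Sod2. Among the rest it was -1.24 for Hbegf, -2.33 for Stc1, -2.90 for Eif4ebp3, -1.92 for Per1, -3.67 for Ciart and -1.91 for Ccnc. In 44 of the 58 genes the log2 fold change under LPS had the opposite sign to that with saline. Only 3 of these, Ciart, Dtx4 and Ccnc, were also called with saline. The 58 genes were selected by this difference, which favours opposite signs, and the share over all genes was not counted.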

How the results depend on the processing

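The number of genes called under LPS changed with most settings, and the cause was not tested. Against 48 higher and 54 lower genes, library totals gave 615 and 139, no filter 333 and 306, DESeq2 781 and 735, all 13 libraries in 1 fit 1373 and 988, limma-voom 9 and 28, and limma-voom with sample weights 1016 and 912. RLE factors (51 and 63), a filter of 1 CPM, mitochondrial genes left out, robust edgeR and a fold minimum stayed within 1.5 times. Leaving out 1 library gave 1 to 1078 higher and 0 to 863 lower genes, the upper ends without knockout AKI-156. Groups that did not overlap numbered 1407 higher and 1306 lower, and 3438 and 3070 without knockout AKI-156, an alternative added after seeing the data.

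With saline, no filter gave 21 higher and 28 lower genes, DESeq2 117 and 189, library totals 6 and 6, the fit of all libraries 1 and 2, and single libraries left out 2 to 6 in either direction. For the interaction, library totals gave 801 and 94, DESeq2 783 and 602, and libraries left out 5 to 1414 higher and 5 to 1115 lower, with no filter giving 306 and 159. With the saline label numbers as a replicate block, 0 genes were higher and 1 was lower with saline (5 and 4 for the interaction). Same-numbered saline libraries deviated together by correlations of 0.050, -0.040 and -0.032 only. These values gave no sign that the numbers pair the mice, but a pairing with a small effect could give such values too. LPS labels share no numbers. The mitochondrial share differed by -5.14 to -2.74 percentage points with libraries left out.

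Of 209 genes followed, 179 kept their sign in every alternative, and none of the 30 that did not was called. Called genes had groups that did not overlap, so a change of sign was unlikely for them from the start. Scaled by library totals alone, which moved the median of all genes by 0.32 on the log2 scale, 22 genes changed to a positive log2 fold change: Atp5a1 0.083, Atp5b 0.087, Calb1 0.10, Cd74 0.12, Chuk 0.16, Gpx3 0.063, Hsp90ab1 0.18, Hspa5 0.063, Jak1 0.29, Lcn2 0.031, Ldha 0.23, Mc2r 0.056, Nnt 0.063, Pcna 0.13, Pkm 0.18, Ptges 0.25, Ptma 0.27, Rpl4 0.044, Rpl7 0.082, Star 0.021, Upk1b 0.31 and Vcam1 0.19. With limma-voom Pck1 -0.056, S100a9 -0.27 and Upk1b 0.025 changed sign, and with sample weights Calb1 0.004, Cfd -1.01, Ptges 0.015, S100a9 -0.75 and Upk1b 0.20. With single libraries left out, log2 fold changes of these genes crossed 0 and ran as follows: Btc -0.083 to 0.30, C3 -0.21 to 0.34, Calb1 -0.43 to 0.12, Cd74 -0.34 to 0.043, Chil3 -0.29 to 1.16, Chuk -0.39 to 0.047, Egf -0.85 to 0.084, Gpx3 -0.46 to 0.062, Hspa5 -0.57 to 0.011, Jak1 -0.17 to 0.16, Mc2r -0.61 to 0.088, Pck1 -0.52 to 0.34, Ptges -0.29 to 0.12, Ptma -0.25 to 0.14, S100a9 -1.64 to 0.68, Srp72 -0.088 to 0.45, Star -0.55 to 0.013, Upk1b -0.38 to 0.37, Vcam1 -0.36 to 0.13. At the spread between these libraries most simulated 2-fold changes were not called.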
